A study of Mus musculus with 3 samples.

Results

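The E protein genes here are Tcf3, Tcf4 and Tcf12, and the HES/HEY repressor genes are Hes1, Hes6, Hey1 and Hey2. With the tissue-restricted factors Neurog3 and Atoh8 they encode basic helix-loop-helix (bHLH) proteins. The main partners of Id proteins belong to this class of transcription factors. These 9 genes were taken by name from the platform annotation, out of 18193 genes that it pairs with probe sets of their own, and every probe set paired with them was used, 22 of 45101. They were measured in R1 cells, an established line of mouse embryonic stem (ES) cells, in the undifferentiated state. The treated cells received BMP4 at 20 ng/ml or the secreted BMP antagonist noggin at 100 ng/ml, each for 4 h. The third set of cells was untreated, with no time given. Each condition had 1 Affymetrix array, 3 in all, so there is no replicate error and no test, and the size of a difference describes these arrays only.

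E proteins are broadly expressed bHLH factors that bind E boxes in DNA, as pairs with each other or with tissue-restricted partners such as neurogenins. Id proteins have the helix-loop-helix but lack the basic stretch that touches DNA, so an E protein held by an Id protein cannot bind. HES and HEY proteins are bHLH repressors, best known as direct targets of Notch signalling, and recruit Groucho corepressors. In mouse ES cells the Id genes are targets of BMP-activated SMADs, and Id proteins are known to hold back neural differentiation.

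Values are log2 expression values from RMA, the authors' normalization, so that a difference of 1 is a 2-fold difference. Each gene is given by the probe set whose mean over the arrays was highest, called its representative. It was spoken of as above the floor if it exceeded 3.44, the median of all values, on at least 1 array. By this rule 11594 genes were above the floor, and 8 of the 9 bHLH genes were, the exception being Hey2. Levels of different probe sets are not comparable with each other, since each has its own probe affinity.

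All 9 markers of undifferentiated ES cells were above the floor, between 8.95 (Fgf4) and 12.86 (Dppa5a), and Pou5f1 measured 11.53 with BMP4, 11.31 with noggin and 11.31 without treatment. Of 9 fibroblast markers, which feeder cells would carry, 6 were above the floor, and none exceeded 5.09. Their log2 values summed to 24.3 with BMP4, 25.4 with noggin and 25.3 without treatment, with Col1a1, Col3a1 and Lum below the floor on all 3 arrays. The arrays also differed in controls. The 3′ probe set of Tfrc exceeded its 5′ probe set, a measure of RNA integrity, by 1.38 with BMP4, 1.88 with noggin and 1.51 without treatment, and for Actb the excess was 0.21, 0.37 and 0.32 on the same arrays. The 24 probe sets for poly-A spikes, added before labelling, were all lower with BMP4 than without treatment, by a median difference of −0.63, and 23 were lower with noggin, by −0.18. Their part in the differences reported here was not tested. As a scale for disagreement among probe sets of a gene, the within-gene SD of their differences was taken. It was 0.13 when BMP4 was set against untreated, 0.11 when noggin was, and 0.16 between BMP4 and noggin. It does not measure spread between arrays, since a deviation that a gene's probe sets share cancels out.

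**Figure D1:**
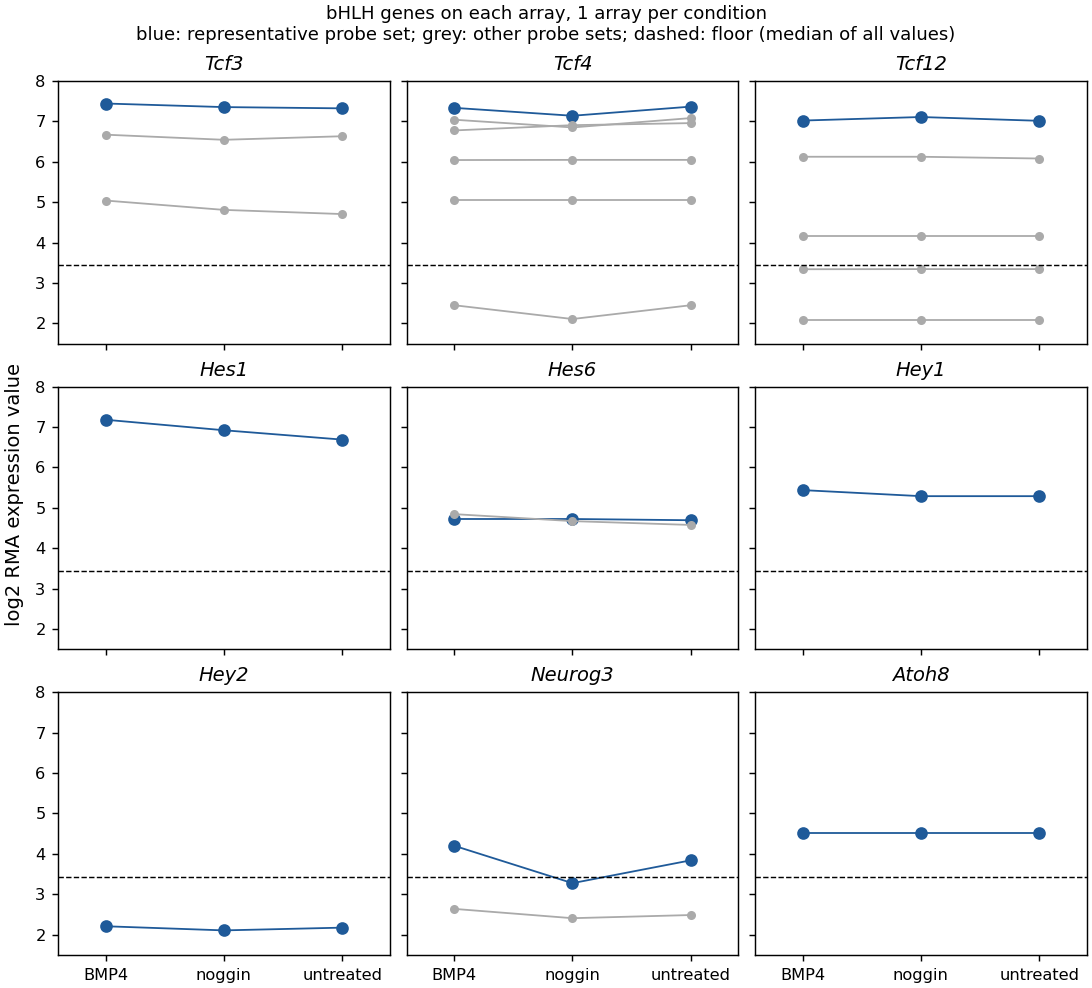
Log2 RMA values (vertical axis) of the 22 probe sets of the 9 bHLH genes on the BMP4, noggin and untreated arrays, with lines joining the values of a probe set. Blue marks the representative probe set, grey the others, and the dashed line the floor of 3.44; Hes1 was highest with BMP4 at 7.18, Neurog3 crossed below the floor with noggin at 3.28, and Hey2 stayed below it.

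The 3 E protein genes were present above the floor, with differences from untreated between −0.23 and 0.12 for their representatives. Tcf3 encodes E12 and E47 (E2A). Its representative probe set measured 7.44 with BMP4, 7.35 with noggin and 7.32 without treatment, differences of 0.12 and 0.03 from untreated. Its other probe sets gave 0.04 and 0.33 for BMP4 minus untreated, and −0.09 and 0.10 for noggin minus untreated. All 3 probe sets of Tcf3 were thus highest with BMP4, by amounts that differed among them. The largest of these, 0.33, came from a probe set (1452542_x_at) whose suffix marks probes that may also bind other transcripts, as do the representatives of Tcf4 and Hes6, and it measured 5.04 with BMP4, 4.81 with noggin and 4.70 without treatment. The name Tcf3 was once used also for Tcf7l1, a mediator of Wnt signalling, and Tcf4 for Tcf7l2. The probe sets here carry the Entrez identifiers of the E protein genes.

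Tcf4 encodes E2-2. Its representative probe set measured 7.33 with BMP4, 7.14 with noggin and 7.36 without treatment, differences of −0.03 and −0.23 from untreated. A further probe set (1424089_a_at) gave nearly the same pair of differences, −0.04 and −0.23, whereas 1416723_at gave −0.18 with BMP4 and −0.05 with noggin. The remaining 2 above the floor were at 0.00 in both comparisons, and the last of the 6, below the floor on all arrays, measured 2.45 with BMP4, 2.11 with noggin and 2.45 without treatment. The lower values with noggin were therefore shared by some of the Tcf4 probe sets, not by all. For 1991 genes of like level, those within 0.5 of its mean, the central 95% of noggin minus untreated differences ran from −0.20 to 0.17, and the representative lay below that range.

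Tcf12 encodes HEB. It measured 7.02 with BMP4, 7.11 with noggin and 7.01 without treatment, differences of 0.01 and 0.09 from untreated. Its other 2 probe sets above the floor gave 0.04 and 0.00 in both comparisons. A further 2 lay below the floor on all arrays.

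Hes1 had the largest difference from untreated with BMP4 among the 9 genes. Hes1 is the repressor through which Notch holds back neuronal and endocrine differentiation, and in mouse ES cells its level is known to oscillate. Its single probe set measured 7.18 with BMP4, 6.92 with noggin and 6.69 without treatment. The BMP4 value was 1.41-fold higher than the untreated value, a difference of 0.49, and 39 of the 11594 genes had a larger one. Noggin minus untreated was 0.23 and had the same sign, with 161 genes larger. The untreated array was thus the low array of the 3, and BMP4 exceeded noggin by 0.26. Among 2050 genes of like level the central 95% of differences ran from −0.24 to 0.20 between BMP4 and untreated, from −0.21 to 0.17 between noggin and untreated and from −0.28 to 0.27 between BMP4 and noggin. Hes1 lay above the range in the first and in the second comparison, and inside it in BMP4 minus noggin. The first and second share the untreated array, and any deviation of that array enters both. Among 5 primitive endoderm markers, Gata6 had the same array order as Hes1, at 5.20 with BMP4, 4.82 with noggin and 4.67 without treatment, and another probe set of Gata6 gave 0.90 with BMP4 and 0.44 with noggin. Sox17 had another order, at 4.10 with BMP4, 3.87 with noggin and 4.02 without treatment, and Dab2 was equal at 3.58 on all arrays. The 3 of these markers above the floor, Gata6, Sox17 and Dab2, summed to 12.9 with BMP4, 12.3 with noggin and 12.3 without treatment on the log2 scale. Most of the higher sum with BMP4 came from Gata6. Gata4 and Foxa2 were below the floor on all arrays, and the part of such cells in the Hes1 values was not tested. These are bulk RNA values, in which a change in the share of cells that express a gene and a change in RNA per cell cannot be told apart.

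Hes6 and Hey1 differed less. Hes6 encodes an atypical family member known to oppose Hes1 and to promote neuronal differentiation. Its representative probe set measured 4.72 with BMP4, 4.72 with noggin and 4.69 without treatment. The other probe set (1452021_a_at) measured 4.84 with BMP4, 4.67 with noggin and 4.58 without treatment, differences of 0.27 and 0.09 from untreated. The probe sets of Hes6 were both lowest without treatment. Hey1, a Notch target that in endothelial cells is also a BMP target, measured 5.44 with BMP4, 5.29 with noggin and 5.29 without treatment. Its BMP4 difference of 0.15 lay inside the central 95% of 1714 genes of like level, −0.28 to 0.24.

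Hey2, a related repressor of heart and vessel development, was below the floor throughout, at 2.21 with BMP4, 2.11 with noggin and 2.18 without treatment. Differences at that level are within the background of the arrays. The RefSeq promoter window of Hey2 (GRCm38.p6, chr10:30842734-30843033, minus strand, 250 bases before to 50 after the start) is shown because, among the 9 windows searched, of 6 of these genes, it was the only one holding the letters TGGGAA, the core bound by the Notch effector RBPJ, and GGCGCC, a palindrome bound by SMAD1 and SMAD5. The promoters of Hes1, Hey1 and Tcf4 were not searched. Capitals mark every match, on either strand, to TGGGAA, to GGCGCC and to the E box CANNTG.
Hey2 promoter: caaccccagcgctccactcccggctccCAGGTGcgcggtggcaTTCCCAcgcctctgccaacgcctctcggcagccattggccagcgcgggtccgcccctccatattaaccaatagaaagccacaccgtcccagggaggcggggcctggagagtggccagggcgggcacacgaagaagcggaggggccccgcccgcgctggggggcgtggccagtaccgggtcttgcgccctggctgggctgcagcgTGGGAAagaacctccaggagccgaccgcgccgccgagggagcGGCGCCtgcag
TGGGAA starts at position −3 from the start site, its reverse complement at −207, GGCGCC at 40 and the E box at −223.

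Neurog3 differed most between the treatments. Neurogenin 3 is a proneural factor that pairs with E proteins, specifies endocrine cells in the mouse pancreas, and is repressed there by Hes1. Its representative probe set (1432034_at) measured 4.20 with BMP4, 3.28 with noggin and 3.84 without treatment. BMP4 minus untreated was 0.36, which 90 genes exceeded. As deposited, noggin minus untreated was −0.57 and BMP4 minus noggin 0.93, but the noggin value was below the floor of 3.44. With values below the floor set to it, noggin minus untreated was −0.40, with 35 genes lower, and BMP4 minus noggin was 0.76, with 22 genes higher. All 3 deposited differences lay outside the central 95% of 1700 genes of like level, which ran from −0.27 to 0.21, from −0.34 to 0.21 and from −0.26 to 0.36 in the same order of comparisons.

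The Neurog3 values lie near the background. Low values were spread lower on the noggin array, whose 5th percentile was 1.60, against 1.82 on the BMP4 and on the untreated array. The other Neurog3 probe set, below the floor throughout, measured 2.64 with BMP4, 2.41 with noggin and 2.49 without treatment, the same order of arrays with smaller differences. With both probe sets averaged, BMP4 minus noggin was 0.58, short of 1.5-fold, and the averaged gene fell below the floor.

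The RefSeq promoter window of Neurog3 (GRCm38.p6, chr10:62132840-62133139, plus strand) is shown because this gene differed most. It held 1 E box, CAGCTG, at position −165, in capitals, and no match to the N box CACNAG, the site class of HES proteins, or to TGGGAA or GGCGCC.
Neurog3 promoter: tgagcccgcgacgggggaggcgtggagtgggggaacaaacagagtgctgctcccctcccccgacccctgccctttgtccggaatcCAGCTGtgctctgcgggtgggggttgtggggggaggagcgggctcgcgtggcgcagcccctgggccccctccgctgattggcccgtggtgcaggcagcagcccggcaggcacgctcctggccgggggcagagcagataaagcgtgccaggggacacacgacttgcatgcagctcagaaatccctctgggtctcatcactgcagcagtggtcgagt
RefSeq windows were matched for 6 of the 9 genes, 9 windows in all, counting alternative starts and leaving out that of Tcf4, which was not used here. No window was available for Hes1 or Hey1, so nothing is said of motifs in their promoters. An E box, searched on both strands, was in 9 of 9 windows and in 72.3% of all 32817 promoter windows of the same length. The N box was in 4 of 9, 2 of Tcf12, 1 of Hes6 and 1 of Atoh8, and in 42.5% of all. TGGGAA was in 1 of 9 and in 25.6% of all, and GGCGCC in 1 of 9 and in 11.9% of all. No match to a motif overlapped a match to another in these windows. Their GC content ran from 36.3% to 75.7%, beside a median of 52.7% over all promoter windows, and the shares were not adjusted for it. A match is a description of the letters, and these counts say nothing about binding.

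Atoh8, the mouse member of the atonal family known as Math6, had exactly the same value, 4.53, on all 3 arrays. Equal values are common in RMA output with few arrays, and 24.7% of genes above the floor were equal to 6 decimals on all 3. They do not show that the transcript level was the same.

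**Figure D2:**
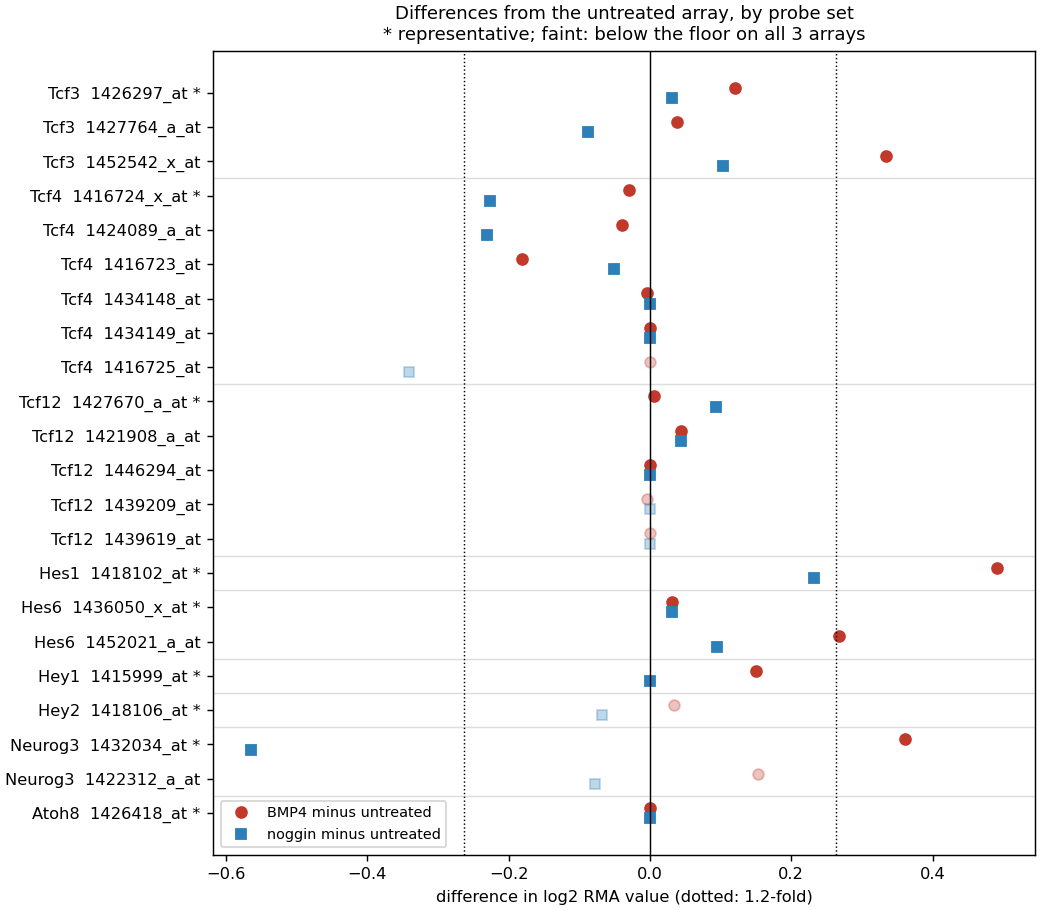
Differences from the untreated array (horizontal axis, log2) for each of the 22 probe sets, with BMP4 as circles and noggin as squares, and dotted lines at 1.2-fold. Probe sets of Hes1, Neurog3, Tcf3 and Hes6 passed that size with BMP4 (0.49, 0.36, 0.33 and 0.27), and Neurog3 at −0.57 and a faint, below-floor probe set of Tcf4 at −0.34 passed it with noggin. Of the 17 probe sets above the floor, 4 passed it with BMP4, against 5.49% of all above-floor probe sets with 1 gene symbol. With noggin 1 of 17 passed it, against 3.88%.

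Set against all genes, BMP4 minus untreated was at least 2-fold in 0 of the 8 bHLH genes above the floor, where 0.104% of all genes were. At 1.5-fold the counts were 0 of 8 and 0.276%. At 1.2-fold, a limit chosen after the values were seen, 2 of 8 differed (Hes1 and Neurog3, both higher), against 3.84% of all genes in either direction. That of Neurog3 fell short of 1.2-fold with its probe sets averaged, at 0.26, and with a pseudocount of 16 on the linear scale, at 0.18. By sign alone, 6 of 8 were higher, 1 lower (Tcf4) and 1 equal, while 24.8% of all genes were higher, 35.6% lower and 39.6% equal. The median difference was 0.08, beside 0.00 for all genes. Several of the 6 higher values were small, such as 0.01 for Tcf12 and 0.03 for Hes6, whose other probe set gave 0.27.

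For noggin minus untreated, 0 of 8 reached 2-fold, as did 0% of all genes, and 0 of 8 reached 1.5-fold, against 0.0776%. At 1.2-fold, 1 of 8 differed (Neurog3, lower), against 2.79% of all genes in either direction, and at −0.24 it fell short with the pseudocount. By sign, 4 of 8 were higher, 2 lower and 2 equal, while 26.8% of all genes were higher, 36.1% lower and 37% equal. The median difference was 0.02, beside 0.00 for all genes.

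BMP4 minus noggin, the widest contrast of signalling here, was at least 2-fold in 0 of 8, against 0.121% of all genes. At 1.5-fold 1 of 8 differed (Neurog3, higher), against 0.518% of all genes in either direction. With the pseudocount it was 0.42, short of 1.5-fold. At 1.2-fold the count was again 1 of 8, against 6.63%. By sign 5 of 8 were higher, 1 lower (Tcf12 at −0.09) and 2 equal, while 33.1% of all genes were higher, 34.1% lower and 32.9% equal. The median difference was 0.12, beside 0.00 for all genes.

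**Figure D3:**
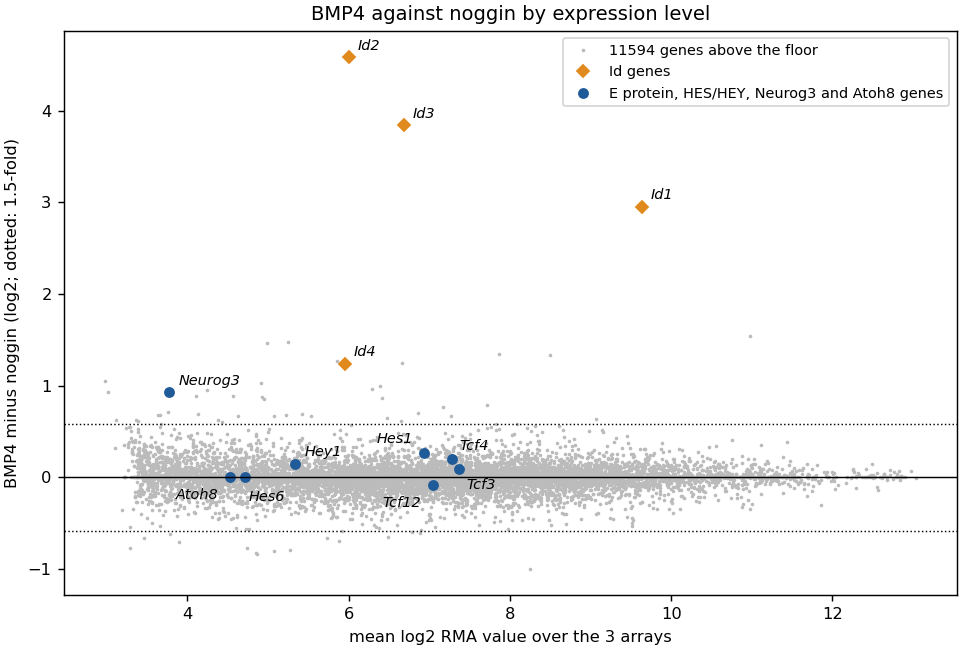
BMP4 minus noggin (vertical axis, log2) against the mean log2 value over the 3 arrays (horizontal axis) for 11594 genes above the floor, with dotted lines at 1.5-fold. Neurog3 stood at 0.93 at the low end of the level scale, the other bHLH genes lay between −0.09 and 0.26, and the 4 Id genes, shown for comparison, lay between 1.24 and 4.59.

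The order of the arrays differed among the 8 genes. Neurog3 alone ran BMP4 above untreated above noggin, the order of 9.64% of all genes. Hes1 and Tcf3 ran BMP4 above noggin above untreated, as did 3.72% of all genes. Tcf4 was highest without treatment and lowest with noggin, and Tcf12 was highest with noggin. The arrays next to each other in these orders lay within the within-gene SD for Tcf3, where noggin and untreated differed by 0.03, for Tcf12, at 0.09 or less, and for Tcf4, where BMP4 and untreated differed by −0.03. Of the Tcf4 probe sets, 1416723_at was lowest with BMP4. The Id genes, which encode inhibitors of the E proteins, were all higher with BMP4 than without treatment, by 4.10 for Id2, 3.58 for Id3, 2.76 for Id1 and 0.84 for Id4. With noggin their representatives were lower, by differences from −0.19 (Id1) to −0.49 (Id2). Another probe set of Id2 above the floor gave 4.71 with BMP4 and only −0.05 with noggin.

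By Euclidean distance over the differences from untreated (3 arrays), the genes most like Hes1 among all genes above the floor were Umad1 at 0.06, Urgcp at 0.06 and Calhm6 at 0.08. Umad1 was above the floor with BMP4 alone, at 3.54, against 3.21 with noggin and 3.04 without treatment. Urgcp measured 6.18 with BMP4, 5.95 with noggin and 5.74 without treatment. The genes most like Neurog3 were Zfp935 at a distance of 0.11, Fgfbp3 at 0.14 and Taf15 at 0.15. Zfp935 and Fgfbp3 also had values near or below the floor, at 3.48 each with BMP4 and at 2.43 and 2.56 with noggin, against 3.01 and 3.02 without treatment. With 3 arrays such likeness describes the values and no more.

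In the wider HES and HEY family, 5 of the 11 genes with a probe set named for them were above the floor. Besides Hes1, Hes6 and Hey1 these were Hes5 (chosen for mention after its values were seen), a Notch target of neural progenitors equal at 3.55 on all arrays, and Bhlhe40, a repressor of the circadian feedback loop, at 8.16 with BMP4, 8.16 with noggin and 8.19 without treatment. The family's median difference was 0.03 for BMP4 minus untreated and 0.00 for noggin minus untreated.

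Of 38 tissue-restricted bHLH genes that pair with E proteins and had a named probe set, 15 were above the floor. With BMP4, 3 were higher than untreated, 7 lower and 5 equal, and with noggin 2 were higher, 5 lower and 8 equal, with medians of 0.00 in each. The shares over all genes, for this list and those below, were 24.8% higher with BMP4, 35.6% lower and 39.6% equal. With noggin they were 26.8%, 36.1% and 37%. Mesp2, a factor of paraxial mesoderm segmentation, measured 4.41 with BMP4, 3.72 with noggin and 4.26 without treatment, the same order as Neurog3, and its BMP4 minus noggin difference of 0.69 passed 1.5-fold. Msc, the repressor musculin, differed in the other direction, at 6.70 with BMP4, 7.11 with noggin and 7.16 without treatment, a BMP4 difference of −0.46. Tcf15, chosen for mention after its values were seen, is a factor of paraxial mesoderm that is known to prime mouse ES cells for differentiation and to be inhibited by Id proteins. It was close to level, at 8.99 with BMP4, 9.02 with noggin and 9.01 without treatment. Of the 5 neural markers, 4 were above the floor, and their median BMP4 difference was −0.17. Ncam1 at −0.42 and Pax6 at −0.37 were lower with BMP4 than without treatment, while Tubb3 differed by 0.09 and Nes by 0.03. Other probe sets of Ncam1 gave 0.00 and −0.07. Pax6 lay near the floor, at 3.48 with BMP4, 3.84 with noggin and 3.84 without treatment, and its other probe sets were below the floor. The log2 values of the 4 neural markers above the floor summed to 21.6 with BMP4, 22.1 with noggin and 22.2 without treatment. Sox1 was below the floor on all arrays. The part of neural cells in the Neurog3 values was not tested.

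Notch ligands, receptors and processing enzymes were above the floor for 26 of the 30 genes with a named probe set. With BMP4, 5 were higher than untreated, 12 lower and 9 equal, and with noggin 7 were higher, 8 lower and 11 equal, with medians of 0.00. Jag1, a Notch ligand, measured 5.60 with BMP4, 5.93 with noggin and 6.05 without treatment, a BMP4 difference of −0.46, while another probe set of Jag1 above the floor gave 0.03. Dtx1, a ubiquitin ligase that modulates Notch, measured 6.29 with BMP4, 6.57 with noggin and 6.66 without treatment. Pofut1, the fucosyltransferase that Notch receptors need for ligand binding, was higher by 0.38 with BMP4 and by 0.26 with noggin, and its other probe sets gave 0.20 and 0.09 for BMP4. Rbpj, the DNA-binding partner of Notch, chosen for mention after its values were seen, measured 9.04 with BMP4, 9.32 with noggin and 9.21 without treatment, and its other probe sets gave BMP4 minus noggin differences of −0.29 and −0.05.

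Notch target genes outside the HES and HEY family were above the floor for 6 of 8 genes. With BMP4, 0 were higher than untreated, 4 lower and 2 equal, with a median of −0.07. Over all genes 24.8% were higher, 35.6% lower and 39.6% equal. The list's median with noggin was −0.08, from 2 higher and 4 lower, beside 26.8% and 36.1% of all genes. Dtx1 and Notch3, both lower with BMP4, are also in the preceding Notch list. Other probe sets gave BMP4 differences of 0.04 for Notch3 and 0.04 and 0.07 for Ccnd1. Dtx1 at −0.38 and Myc at −0.14 were lowest with BMP4. Nrarp, a feedback inhibitor of Notch, was equal at 4.59 with BMP4 and without treatment, and another probe set of Nrarp gave 0.33. The other 2 genes of the list, Gata3 and Sox9, were below the floor on all arrays. Gata3, chosen for mention after its values were seen, measured 2.65 with BMP4, 2.05 with noggin and 2.13 without treatment, within the background.

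Corepressors of the Groucho and ETO families, with the deacetylases and CtBP proteins that act beside them, were above the floor for 12 of the 14 genes with a named probe set. With BMP4, 7 were higher than untreated and 5 lower, with a median of 0.02, and with noggin 4 were higher, 6 lower and 2 equal, with a median of −0.0033. Tle1, a Groucho protein bound by HES factors, measured 6.86 with BMP4, 6.37 with noggin and 6.58 without treatment. Its other probe set went the other way, at −0.09 for BMP4 minus untreated and −0.07 for BMP4 minus noggin.

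The bHLH-Zip and bHLH-PAS factors, most of which pair among themselves and are not partners of E proteins, were above the floor for 32 of the 38 genes with a named probe set. With BMP4, 6 were higher than untreated, 11 lower and 15 equal, and with noggin 12 were higher, 10 lower and 10 equal, with medians of 0.00. Tfe3, a regulator of lysosomal genes, had the lowest BMP4 difference at −0.36, and Max, the partner of Myc, the highest at 0.30. For Mitf the representative probe set gave −0.24 and another 0.46. Like the E proteins, these lists held no gene past 1.5-fold from untreated.

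**Figure D4:**
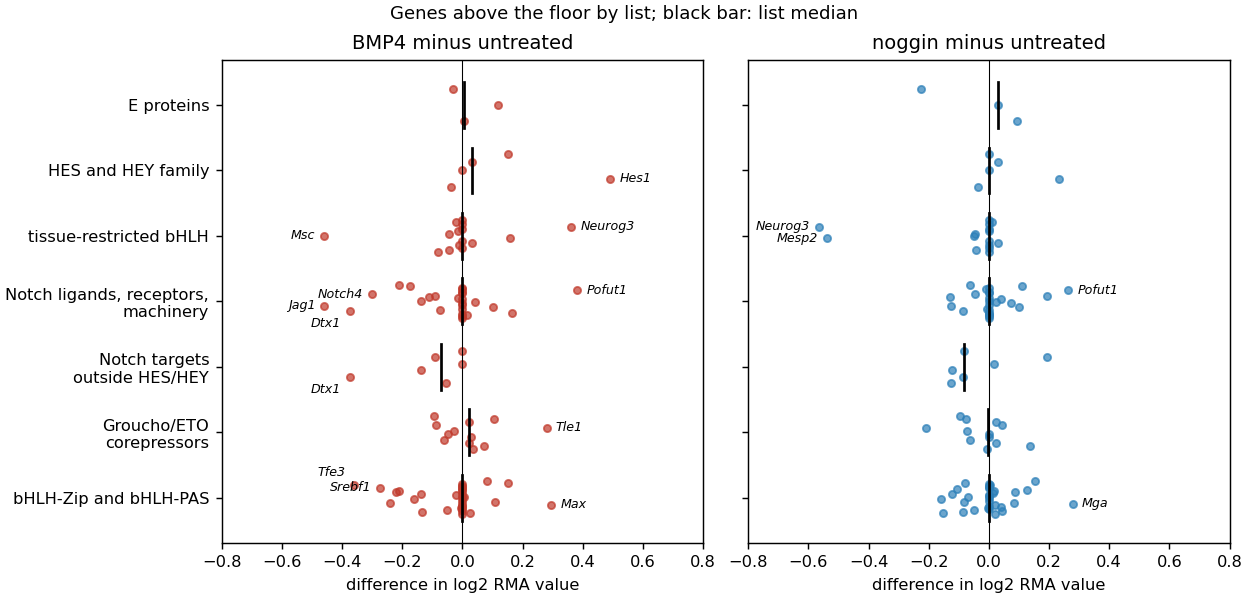
Differences from the untreated array (horizontal axes, log2) for genes above the floor in 7 lists, with BMP4 minus untreated on the left and noggin minus untreated on the right. Points are genes and black bars list medians; names mark genes past 1.2-fold, from Msc at −0.46 to Hes1 at 0.49 with BMP4, and from Neurog3 at −0.57 to Mga at 0.28 with noggin.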

How the data were processed

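Each of the 3 samples was labelled total RNA on 1 Affymetrix array. Log2 values for every probe set were deposited by the authors in 1 table, made with RMA (background correction, quantile normalization, median polish over the probes of a probe set) per the submitters' processing notes. The version, settings and genome build are not given in the sources used here. Quantile normalization makes the arrays' distributions alike, which would mask a change in total RNA, and median polish gives many exactly equal values. Probe sets were named by the platform annotation, and the Entrez identifiers of all 9 genes matched their RefSeq symbols. Of 45101 probe sets, 34945 had 1 gene symbol. Differences were taken as deposited with Python 3.11.15, numpy 2.4.6 and pandas 2.3.3, and correction by lowess used statsmodels 0.14.6. With 1 array per condition no p-value or SD between samples can be given, and array number limits the precision. Genes named are the 9, the Id genes, Pou5f1, and the 3 nearest genes by distance for each of the 9 that differed from untreated by at least 0.3. From 8 lists, genes were eligible that differed at least 1.5-fold or had the 2 largest differences in either direction. Only some of the eligible list genes are named. Marker genes are named as checks, and Hes5, Tcf15, Rbpj and Gata3 were named after their values were seen. The 9 genes and the lists were chosen with earlier results of these data known. The computation was tested on simulated data with known differences larger than those of the 9 genes, which checks the arithmetic only. Alternatives were other floors, probe set rules, centring, lowess with a span of 0.3, a pseudocount of 16 and other size limits.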

Additional observations from a re-analysis of the deposited data

How the results depend on the processing

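The median difference of the bHLH genes above the floor moved by less than the within-gene SD of probe sets under every alternative tried. It ranged from 0.06 to 0.15 between BMP4 and untreated, from 0.00 to 0.02 between noggin and untreated, and from 0.09 to 0.12 between BMP4 and noggin. The number of bHLH genes higher with BMP4 than untreated depended on the setting. It ran from 4 of 7 with probe sets of the plain suffix alone to 7 of 8 with lowess. For single genes, 149 of the recomputed differences moved by less than that SD and 10 by more, all of Tcf4 or Neurog3. Many of the 149 could not move, so this count is not a measure of stability. Centring subtracted a median of 0.00, and setting low values to the floor changed only Hey2 and Neurog3. Hes1, Hey1, Hey2 and Atoh8 had 1 probe set each, which other probe set rules leave as it is. With probe sets of the plain suffix alone, Tcf4 gave −0.18 with BMP4, −0.05 with noggin and −0.13 for BMP4 minus noggin, the last opposite in sign to 0.20. With a pseudocount of 16, Neurog3 gave 0.18, −0.24 and 0.42, since the pseudocount shrinks differences of low values. The count of all genes past 2-fold was 12 between BMP4 and untreated, 0 between noggin and untreated and 14 between BMP4 and noggin. At 1.5-fold these counts were 32, 9 and 60, and at 1.2-fold, chosen after seeing the data, 445, 324 and 769. With probe sets averaged, 8 genes were past 2-fold for BMP4 minus noggin; the cause was not tested. No array could be left out, and no floor or scaling brought any of the 9 genes past 2-fold. No paired analysis was possible because each condition has 1 array. Values near or below the floor, those of Hey2 and in part of Neurog3, are limited by signal over background.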
